A study of Mus musculus with 48 samples.

Results

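The comparison described here is that of livers from mice eating atglistatin with livers from mice eating the control diet, all of them drinking corticosterone. Its members are the 28 libraries whose labels name corticosterone, of 48 libraries in the study, and all 12688 genes that passed a filter on low counts (of 14251 in the count table) were tested in it. The mice were male C57BL6J. The Cort ATGLi group (14 livers) and the Cort CON group (14 livers) received corticosterone at 100 ug/ml in drinking water for 2 weeks, and the food of the Cort ATGLi group held milled-in atglistatin at 571 mg/kg. The EtOH ATGLi group (10 livers) and the EtOH CON group (10 livers) had the same pair of diets with the 1% ethanol vehicle as drink, and they are used here only to ask whether a difference was also present without corticosterone. Atglistatin was eaten and not given to the liver alone. RNA was read from the 3′ end of transcripts by QuantSeq, which gives counts per gene but no information on splice forms. Libraries are named by group and by the number in their title.

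Corticosterone is the main glucocorticoid of rodents. Prolonged excess raises blood glucose and insulin, and in the liver it acts through the glucocorticoid receptor on genes of glucose output, amino acid breakdown and lipid storage. Atglistatin inhibits adipose triglyceride lipase (ATGL, gene Pnpla2), the enzyme that removes the first fatty acid from stored triglyceride. In adipose tissue this step feeds circulating fatty acids and glycerol, and in hepatocytes it supplies fatty acids for oxidation and signalling.

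Total counts lay between 10832711 and 21175603 in Cort ATGLi libraries and between 8417531 and 19548520 in Cort CON libraries. The summed level of 14 hepatocyte markers had a median of 140756 CPM (counts scaled to the library total) in Cort ATGLi and 165783 CPM in Cort CON libraries. Pancreatic RNA was present in Cort CON replicate 30, which held 4698 CPM over 12 acinar cell genes, and at 74.2, 115.6 and 106 CPM in Cort ATGLi replicates 13, 23 and 47, where the other 24 libraries held at most 27.4 CPM. Cort ATGLi replicate 41 stood apart from its group, with a median correlation of 0.961 with its fellow libraries where the others had 0.983 to 0.990. The labels call 1 of 14 Cort ATGLi mice and 9 of 14 Cort CON mice diabetic.

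Fed glucose, for which the labels give no unit, was 95 at the lowest, 115 at the median and 212 at the highest in Cort ATGLi mice, against 131, 265 and 407 in Cort CON mice. The difference in means was -123 (2-sided permutation test with 100000 resamples, n = 14 each, adjusted p = 0.00016). Insulin, also without a unit, was 2.19, 13.8 and 38.0 in Cort ATGLi mice, against 9.31, 37.8 and 39.8 in Cort CON mice, a difference in means of -13.7 (permutation adjusted p = 0.00462). The Cort CON median of 37.8 lay close to the highest insulin value of 39.8. Whether such values reached an upper limit of the assay was not tested. Both measures overlapped between the groups, and their median values were lower in the Cort ATGLi mice. Among the 13 Cort ATGLi and 5 Cort CON mice not labelled diabetic, the glucose difference was -44.8 (exact permutation adjusted p = 0.0028). The insulin difference of -9.35 did not pass there (exact permutation adjusted p = 0.146). The label did not follow a single glucose limit. The Cort ATGLi mouse labelled diabetic had a glucose of 212, and a Cort CON mouse not labelled diabetic had a higher value. That Cort CON mouse is part of the difference of -44.8, which was not computed without it. All fits without the livers labelled diabetic use this label.

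At an adjusted p of at most 0.05 in edgeR's quasi-likelihood test, 1479 genes differed between Cort ATGLi and Cort CON livers, which is 11.7% of those tested. Of these, 658 were higher (5.19%) and 821 were lower (6.47%) in Cort ATGLi, with 74 higher genes (0.583%) and 122 lower genes (0.962%) changed at least 2-fold. For 41 genes (0.323%) the ranges of CPM of the groups did not overlap at all, with 29 genes higher (0.229%) and 12 lower (0.0946%) in Cort ATGLi. Targets of p53, cholesterol synthesis enzymes and antioxidant enzymes stood out among the higher genes, and acute phase proteins, enzymes of fatty acid synthesis and glucose output, and genes of very long span among the lower ones. The transcript of the drug target was not called. Pnpla2 ranged from 36.9 to 102 CPM (median 44.01) in Cort ATGLi livers and from 26.5 to 83.2 CPM (median 46.1) in Cort CON livers (log2 fold change -0.01 ± 0.13, adjusted p = 0.987). Here and below, fold changes are on the log2 scale and followed by their standard error. Counts of list members below stand beside shares over all genes of 5.19% higher and 6.47% lower, and under vehicle of 1.47% and 1.66%. These shares are those of the main fit. Without the livers labelled diabetic, 320 of 13070 genes tested were higher and 289 lower. With the clock index described below, 344 of 12688 were higher and 449 lower.

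**Figure D1:**
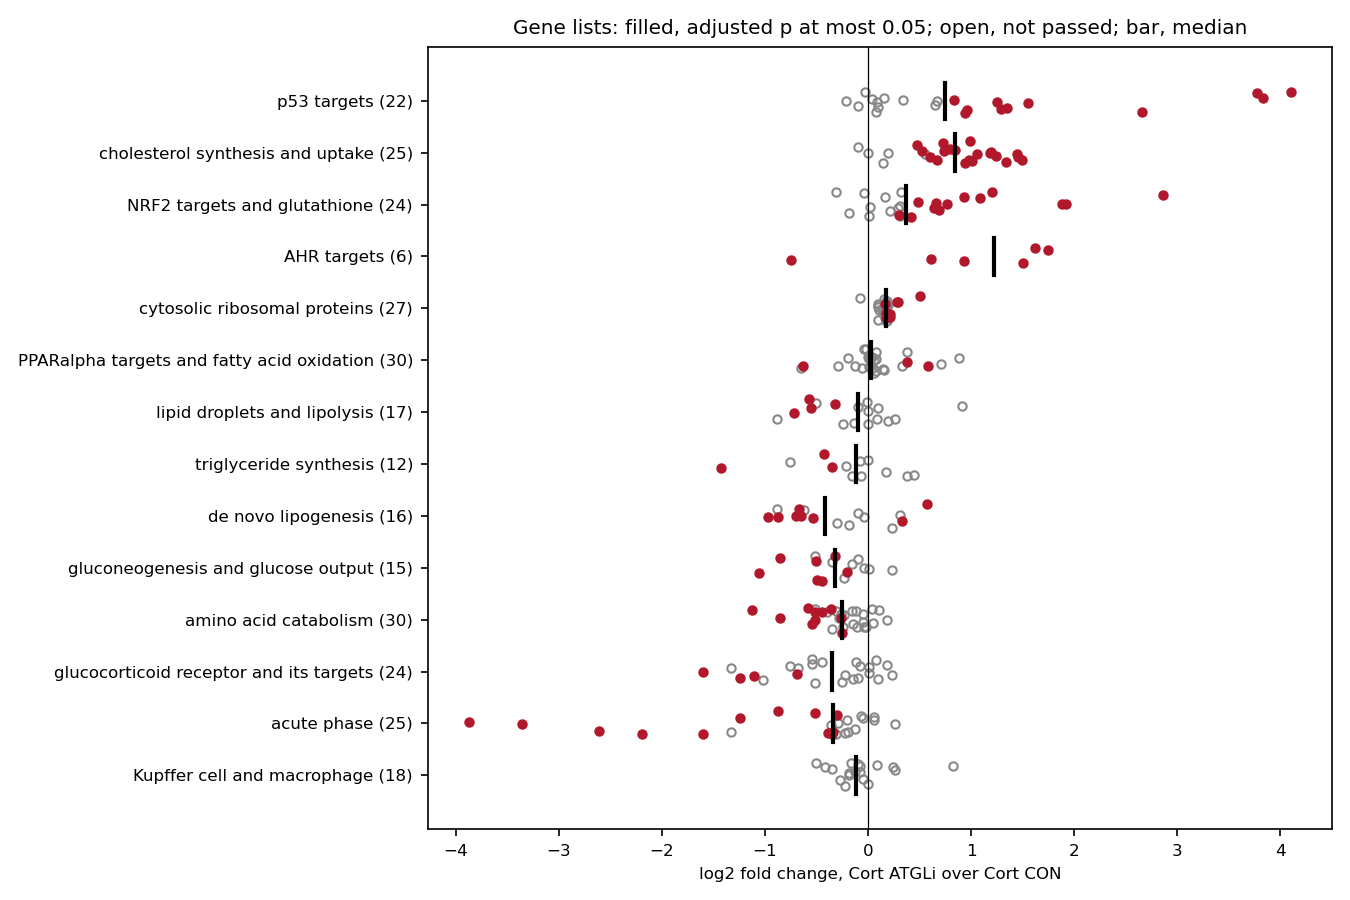
Log2 fold changes, Cort ATGLi over Cort CON, of the measured members of 14 gene lists (number measured in parentheses), with filled points for genes that were called, open points for the others and a bar at the list median. The medians of the p53 target list (0.75) and the cholesterol list (0.85) lie right of 0, and those of de novo lipogenesis (-0.42) and acute phase (-0.33) lie left of it.

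Genes that p53 is known to activate held several of the largest increases. The tumour suppressor p53 is a transcription factor that is stabilised by DNA damage and other stresses and then activates genes of growth arrest, repair and apoptosis, among them Mdm2, the ligase that degrades it. Of 22 measured genes of p53 and its targets, 11 rose in Cort ATGLi livers, against 5.19% of all genes, 0 fell and 11 did not pass. The median log2 fold change of the 22 was 0.75, against 0.00 over all genes tested. In 8 of the 22 the groups did not overlap, against 0.323% of all genes.

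Phlda3 (ENSMUSG00000041801, chromosome 1, 135766119 to 135769136, GRCm38) encodes an inhibitor of Akt. Phlda3 lay between 3.58 and 14.9 CPM in Cort ATGLi livers, with a median of 10.2, and between 0.148 and 0.887 CPM in Cort CON livers, with a median of 0.558. All 14 Cort ATGLi livers were above every Cort CON liver (log2 fold change 4.10 ± 0.19, adjusted p = 2.22e-22). Ddit4l (ENSMUSG00000046818, chromosome 3, 137621612 to 137628333, GRCm38) encodes an inhibitor of mTOR signalling, and Ddit4l had 5.77 CPM at the lowest, 9.33 at the median and 15.5 at the highest in Cort ATGLi livers, against 0.691, 1.43 and 2.004 CPM in Cort CON livers. Its groups were separate as well (log2 fold change 2.66 ± 0.16, adjusted p = 3.87e-18). Eda2r and Tnfrsf10b, which encode receptors of the tumour necrosis factor family, rose, while Fas, another such receptor on the list, was not among the members that rose. Eda2r ranged from 1.85 to 8.88 CPM (median 3.85) in Cort ATGLi livers and from 0.0583 to 0.619 CPM (median 0.279) in Cort CON livers (log2 fold change 3.78 ± 0.26, adjusted p = 4.89e-16), and Tnfrsf10b lay between 1.13 and 5.02 CPM in Cort ATGLi livers, with a median of 2.44, and between 0 and 0.527 CPM in Cort CON livers, with a median of 0.122 (log2 fold change 3.83 ± 0.30, adjusted p = 6.85e-14). Several Cort CON livers had no or hardly any reads of these receptor genes, so the size of those folds depends on few counts.

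Mdm2 had 55.9 CPM at the lowest, 78.0 at the median and 109.9 at the highest in Cort ATGLi livers, against 27.5, 33.99 and 43.7 CPM in Cort CON livers (log2 fold change 1.26 ± 0.09, adjusted p = 8.44e-16). Ccng1 ranged from 45.6 to 116 CPM (median 63.1) in Cort ATGLi livers and from 16.6 to 33.3 CPM (median 21.5) in Cort CON livers; this gene encodes cyclin G1, a partner of Mdm2 (log2 fold change 1.55 ± 0.12, adjusted p = 2.03e-14). Neither gene's lowest Cort ATGLi liver reached down to the highest Cort CON liver. Other targets that rose were Plk2, a kinase of the centrosome cycle (log2 fold change 1.35 ± 0.17, adjusted p = 4.21e-08), the nuclease gene Aen (log2 fold change 1.29 ± 0.15, adjusted p = 3.24e-09), the autophagy regulator Trp53inp1 (log2 fold change 0.96 ± 0.17, adjusted p = 4.49e-05), the pore-forming apoptosis gene Bax (log2 fold change 0.94 ± 0.19, adjusted p = 0.000371) and Zmat3, an RNA-binding protein gene (log2 fold change 0.83 ± 0.09, adjusted p = 2.24e-09). Cdkn1a, the cell cycle inhibitor p21 and a classical p53 target, did not follow them. Cdkn1a lay between 121 and 478 CPM in Cort ATGLi livers, with a median of 324, and between 92.0 and 492 CPM in Cort CON livers, with a median of 289 (log2 fold change 0.10 ± 0.22, adjusted p = 0.841), and its log2 fold change in Cort CON over EtOH CON livers was 4.15, in a comparison that shares the Cort CON libraries. The stress cytokine gene Gdf15 did not pass (log2 fold change 0.67 ± 0.26, adjusted p = 0.09; it passed without Cort CON replicate 28 or 32, at 0.039 and 0.0479), nor did Trp53 itself (log2 fold change -0.21 ± 0.15, adjusted p = 0.414).

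**Figure D2:**
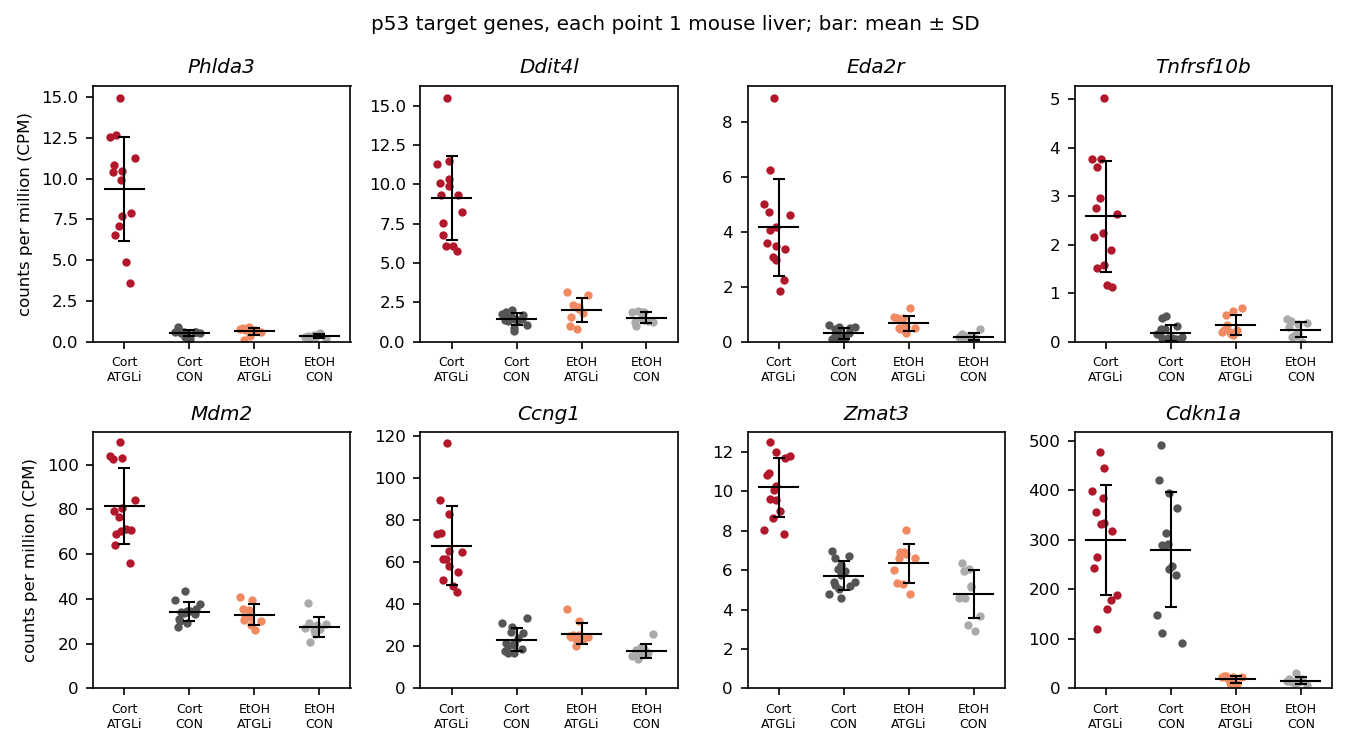
CPM of 8 p53 target genes in each liver of the Cort ATGLi, Cort CON, EtOH ATGLi and EtOH CON groups, with the mean and SD as bars. For Phlda3, Ddit4l, Mdm2 and Ccng1 every Cort ATGLi liver lies above all Cort CON livers, while Cdkn1a is high in both corticosterone groups.

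Other genes with separate groups, chosen after their values were seen, included Ddias (log2 fold change 3.53 ± 0.32, adjusted p = 5.67e-12), known as an anti-apoptotic gene of damaged cells, Polk, a translesion DNA polymerase gene (log2 fold change 0.996 ± 0.12, adjusted p = 6.75e-09), Map3k20, which encodes the ribotoxic stress kinase ZAK (log2 fold change 0.75 ± 0.07, adjusted p = 2.12e-12), Notch1 (log2 fold change 0.82 ± 0.07, adjusted p = 5.52e-13), the phospholipid transporter gene Atp8b5 (log2 fold change 3.34 ± 0.19, adjusted p = 4.08e-19), the glutamate receptor subunit gene Gria3 (log2 fold change 4.52 ± 0.36, adjusted p = 5.19e-14) and the Myb family gene Mybl1 (log2 fold change 2.84 ± 0.33, adjusted p = 1.05e-08). Ddias, Gria3 and Mybl1 had means of at most 3.16 CPM in Cort ATGLi livers.

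The promoter windows of p53 targets that rose are shown because they can be searched for the letters to which p53 is known to bind. RefSeq windows of GRCm38.p6, reaching 250 bases before and 50 bases after a start, were found for 17 of the 22 measured list members, as 23 windows. The p53 half-site was matched in 10 of the 23 (43.5%), against 6.87% of 12355 windows of genes tested here and 8.36% of all 32851 windows. A pair of half-sites at most 13 bases apart, the form that p53 binds, was matched in 1 of the 23 (4.35%), against 0.0324% of the windows of genes tested, and in 0 of the 9 windows of members that rose. Both strands were searched, and capitals mark half-site matches. The set of 4 was picked after the values and matches were seen, and Phlda3 has no match in its window.
Phlda3 (chromosome 1, 135765835 to 135766134, plus strand): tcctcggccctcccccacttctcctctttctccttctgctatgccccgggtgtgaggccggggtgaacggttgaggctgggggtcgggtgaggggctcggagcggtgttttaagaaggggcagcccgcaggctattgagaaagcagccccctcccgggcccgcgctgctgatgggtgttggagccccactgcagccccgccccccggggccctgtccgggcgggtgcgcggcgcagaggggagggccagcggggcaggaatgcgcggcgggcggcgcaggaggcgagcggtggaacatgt
Ddit4l (chromosome 3, 137623422 to 137623721, plus strand): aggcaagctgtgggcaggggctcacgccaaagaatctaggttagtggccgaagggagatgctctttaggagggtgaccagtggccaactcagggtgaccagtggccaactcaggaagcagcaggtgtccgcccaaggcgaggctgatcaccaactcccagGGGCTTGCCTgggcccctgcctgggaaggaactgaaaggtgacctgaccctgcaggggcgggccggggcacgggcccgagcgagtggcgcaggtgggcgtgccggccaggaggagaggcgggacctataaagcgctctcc
Mdm2 (chromosome 10, 117710709 to 117711008, minus strand): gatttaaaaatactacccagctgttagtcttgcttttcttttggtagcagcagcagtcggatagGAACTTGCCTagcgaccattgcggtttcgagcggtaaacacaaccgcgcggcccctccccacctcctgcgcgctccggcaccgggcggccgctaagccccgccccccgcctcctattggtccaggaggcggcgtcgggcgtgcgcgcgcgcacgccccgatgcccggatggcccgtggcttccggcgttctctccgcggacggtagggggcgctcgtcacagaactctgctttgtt
Ccng1 (chromosome 11, 40755237 to 40755536, minus strand): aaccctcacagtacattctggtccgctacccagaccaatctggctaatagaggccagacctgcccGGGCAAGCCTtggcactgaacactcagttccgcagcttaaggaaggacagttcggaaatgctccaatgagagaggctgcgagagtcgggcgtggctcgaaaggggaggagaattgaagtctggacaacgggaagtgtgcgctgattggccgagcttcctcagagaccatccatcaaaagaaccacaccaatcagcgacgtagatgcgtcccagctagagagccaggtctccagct

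Most genes of cholesterol synthesis rose together. Cells make cholesterol from acetyl-CoA through mevalonate, squalene and lanosterol, and the genes of this route are known to be activated by the sterol-sensing factor SREBP2. Of 25 measured genes of synthesis and uptake, 20 rose in Cort ATGLi livers, 0 fell and 5 did not pass, with a median log2 fold change of 0.85. The increases that passed ranged from 0.47 to 1.499 on the log2 scale. With atglistatin under vehicle, 0 of the 25 were higher and 1 was lower, where 1.47% and 1.66% of all genes were. The interaction, the difference of the log2 fold changes under corticosterone and under vehicle, passed in 17, each with a larger value under corticosterone, where 0.701% of all genes did so.

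At the entry to the route, Hmgcs1 had 125 CPM at the lowest, 266 at the median and 370.3 at the highest in Cort ATGLi livers, against 49.8, 114 and 227 CPM in Cort CON livers, and this gene encodes the cytosolic HMG-CoA synthase (log2 fold change 1.05 ± 0.17, adjusted p = 1e-05). Its groups overlapped, with 13 of 14 Cort ATGLi livers above the Cort CON mean. Mvk, mevalonate kinase (log2 fold change 0.99 ± 0.13, adjusted p = 3.02e-07), and the isoprenoid isomerase gene Idi1 (log2 fold change 1.46 ± 0.23, adjusted p = 9.84e-06) act later in the pathway. Fdft1 ranged from 26.4 to 68.0 CPM (median 41.2) in Cort ATGLi livers and from 7.93 to 31.0 CPM (median 16.9) in Cort CON livers; its product, squalene synthase, commits the route to sterols (log2 fold change 1.34 ± 0.13, adjusted p = 5.69e-11). Squalene epoxidase, encoded by Sqle, acts next. Sqle lay between 24.2 and 85.8 CPM in Cort ATGLi livers, with a median of 57.5, and between 4.08 and 56.9 CPM in Cort CON livers, with a median of 15.7 (log2 fold change 1.4993 ± 0.23, adjusted p = 5.63e-06).

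Cyp51 had 102 CPM at the lowest, 173 at the median and 262 at the highest in Cort ATGLi livers, against 16.9, 60.2 and 120.1 CPM in Cort CON livers; it encodes the sterol demethylase that acts on lanosterol (log2 fold change 1.45 ± 0.18, adjusted p = 2.93e-08). All 14 Cort ATGLi livers lay above the Cort CON mean for Fdft1, Sqle and Cyp51. Lss, whose product makes lanosterol (log2 fold change 1.01 ± 0.14, adjusted p = 7.1e-07), and the enzyme genes Msmo1 (log2 fold change 1.24 ± 0.18, adjusted p = 2.53e-06), Nsdhl (log2 fold change 1.20 ± 0.18, adjusted p = 4.81e-06) and Hsd17b7 (log2 fold change 0.98 ± 0.13, adjusted p = 3.77e-07) rose by similar amounts. Insig1, whose product holds SREBP back when sterols are plentiful, rose too (log2 fold change 0.73 ± 0.17, adjusted p = 0.00211). Srebf2, the gene of SREBP2, did not pass (log2 fold change 0.15 ± 0.17, adjusted p = 0.644). The sterol exporter genes Abcg5 (log2 fold change 0.77 ± 0.12, adjusted p = 9.61e-06) and Abcg8 (log2 fold change 0.58 ± 0.14, adjusted p = 0.00248), which are not on this list, were also higher.

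In Cort CON over EtOH CON livers, a comparison that shares the Cort CON libraries and in which 21.7% of all genes were lower, the log2 fold changes were -2.04 for Hmgcs1, -1.72 for Cyp51, -1.50 for Lss and -1.39 for Fdft1. The same genes in Cort ATGLi over EtOH ATGLi livers had log2 fold changes of -0.36, -0.08, -0.03 and 0.09, in that order of genes.

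**Figure D3:**
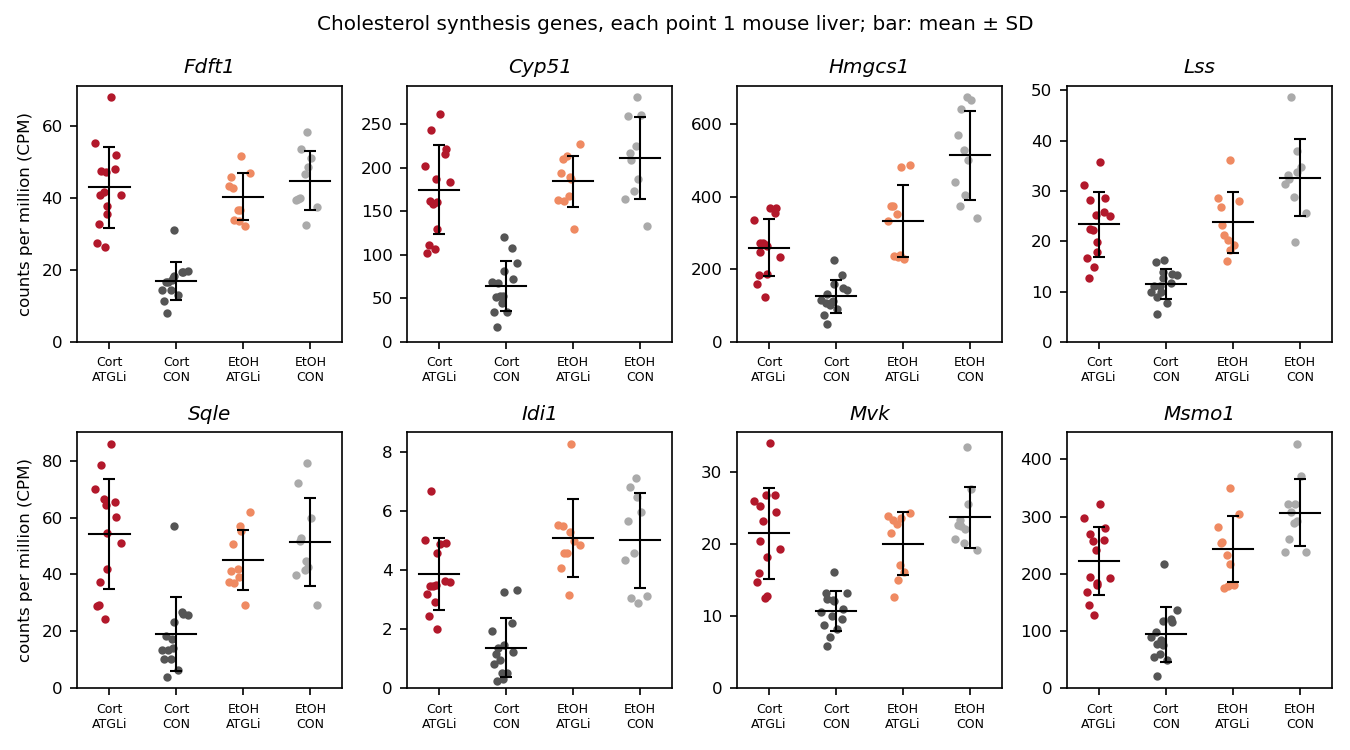
CPM of 8 genes of cholesterol synthesis in each liver of the Cort ATGLi, Cort CON, EtOH ATGLi and EtOH CON groups, with the mean and SD as bars. The Cort CON livers are the lowest group for each gene, with Fdft1 at a mean of 42.9 CPM in Cort ATGLi livers against 16.9 CPM in Cort CON livers.

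Promoter windows of 3 of these genes are shown because the box CCAAT, where the factor NF-Y binds beside SREBP, is frequent in them. Windows were found for 17 of the 25 measured genes, as 20 windows. CCAAT occurred on either strand in 16 of the 20 (80.0%), against 37.4% of windows of genes tested. The sterol element letters TCACNCCAC, searched on both strands, occurred in 1 of the 20, the Hmgcs1 window, against 1.19% of windows of genes tested. Capitals mark matches of either motif, and ATTGG is the CCAAT box on the other strand. The 3 were picked after the values and matches were seen. A match is a run of letters and was not tested as a binding site.
Hmgcs1 (chromosome 13, 119690101 to 119690400, plus strand): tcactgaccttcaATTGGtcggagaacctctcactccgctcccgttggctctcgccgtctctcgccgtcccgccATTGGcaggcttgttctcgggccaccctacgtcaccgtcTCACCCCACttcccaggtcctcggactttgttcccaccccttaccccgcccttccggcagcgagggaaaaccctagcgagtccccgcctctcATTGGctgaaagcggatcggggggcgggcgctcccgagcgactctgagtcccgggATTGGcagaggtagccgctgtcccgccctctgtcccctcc
Mvk (chromosome 5, 114444019 to 114444318, plus strand): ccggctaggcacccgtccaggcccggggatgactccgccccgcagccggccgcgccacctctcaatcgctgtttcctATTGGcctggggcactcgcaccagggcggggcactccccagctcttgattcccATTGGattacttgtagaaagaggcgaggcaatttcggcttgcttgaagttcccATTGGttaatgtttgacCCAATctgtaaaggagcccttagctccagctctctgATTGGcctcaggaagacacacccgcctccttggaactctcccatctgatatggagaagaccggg
Cyp51 (chromosome 5, 4104648 to 4104947, minus strand): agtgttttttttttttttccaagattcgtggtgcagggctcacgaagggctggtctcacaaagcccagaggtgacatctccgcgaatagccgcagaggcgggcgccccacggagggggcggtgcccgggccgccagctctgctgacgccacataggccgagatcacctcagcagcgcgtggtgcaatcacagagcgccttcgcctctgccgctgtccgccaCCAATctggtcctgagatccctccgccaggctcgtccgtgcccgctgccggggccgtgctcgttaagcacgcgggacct

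Many enzymes of antioxidant defence and of xenobiotic metabolism rose, several of them also under vehicle. NRF2 is known to activate genes of glutathione synthesis and conjugation when cells meet electrophiles. Of 24 measured NRF2 and glutathione genes, 13 rose in Cort ATGLi livers, 0 fell and 11 did not pass (median log2 fold change 0.37), and under vehicle 8 rose and 0 fell. Cbr3 ranged from 7.84 to 27.7 CPM (median 14.3) in Cort ATGLi livers and from 0.835 to 4.2 CPM (median 2.001) in Cort CON livers; this gene encodes a carbonyl reductase (log2 fold change 2.86 ± 0.21, adjusted p = 1.38e-14, groups separate). Gstm1 lay between 3840.2 and 7489 CPM in Cort ATGLi livers, with a median of 5119, and between 1763 and 2996 CPM in Cort CON livers, with a median of 2173; it encodes a glutathione transferase (log2 fold change 1.20 ± 0.09, adjusted p = 1.86e-14, groups separate). Gclc had 228 CPM at the lowest, 271 at the median and 387 at the highest in Cort ATGLi livers, against 84.0, 134 and 194 CPM in Cort CON livers, and its product is the catalytic subunit of the enzyme that limits glutathione synthesis (log2 fold change 1.09 ± 0.11, adjusted p = 5.55e-11, groups separate). Gstm3 (log2 fold change 1.88 ± 0.25, adjusted p = 2.49e-07), Gsta1 (log2 fold change 1.92 ± 0.36, adjusted p = 0.000159), the quinone reductase gene Nqo1 (log2 fold change 0.93 ± 0.16, adjusted p = 2.57e-05) and the gene of NRF2, Nfe2l2 (log2 fold change 0.66 ± 0.09, adjusted p = 8.94e-07), rose as well. Reads of near-identical members of the Gstm and Gsta families may be split by the counting, so their values are uncertain. The EtOH ATGLi over EtOH CON log2 fold changes were 1.85 for Cbr3, 0.95 for Gstm1, 1.04 for Nqo1 and 0.36 for Gclc, and of these Gclc alone had an interaction (difference 0.73, adjusted p = 0.00984).

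The aryl hydrocarbon receptor is a sensor of aromatic compounds that activates Cyp1a genes. The list of this receptor and its targets held 6 measured genes, all of them called, 5 higher and 1 lower. Under vehicle 4 were higher. Cyp1a2 ranged from 429 to 1771 CPM (median 1507) in Cort ATGLi livers and from 194 to 610.3 CPM (median 474) in Cort CON livers (log2 fold change 1.62 ± 0.18, adjusted p = 4.34e-09). Cyp1a1 lay between 0.967 and 3.82 CPM in Cort ATGLi livers, with a median of 1.88, and between 0.316 and 1.11 CPM in Cort CON livers, with a median of 0.603, at few counts (log2 fold change 1.74 ± 0.26, adjusted p = 2.03e-06). Cyp2a5, a coumarin hydroxylase gene (log2 fold change 1.51 ± 0.20, adjusted p = 1.94e-07), the receptor gene Ahr (log2 fold change 0.61 ± 0.11, adjusted p = 0.000104) and Nqo1 rose, and Tiparp, a gene of a repressor of the receptor, fell (log2 fold change -0.74 ± 0.15, adjusted p = 0.000356). Both Cyp1a genes were high in nearly every Cort ATGLi liver, with 13 and 14 of 14 above the Cort CON mean for Cyp1a2 and Cyp1a1. Under vehicle Cyp1a1 and Cyp2a5 had log2 fold changes of 2.11 and 1.86.

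A part of the genes of fatty acid and triglyceride synthesis fell. De novo lipogenesis turns citrate into fatty acids and is known to be driven by insulin through SREBP1c. Of 16 measured genes, 6 fell, 2 rose and 8 did not pass. Fasn encodes fatty acid synthase. Fasn had 112 CPM at the lowest, 182 at the median and 354 at the highest in Cort ATGLi livers, against 179.7, 291 and 526 CPM in Cort CON livers (log2 fold change -0.70 ± 0.17, adjusted p = 0.00474). Thrsp ranged from 164 to 1170.2 CPM (median 615) in Cort ATGLi livers and from 660.1 to 1801 CPM (median 1379) in Cort CON livers; this gene encodes Spot 14, a lipogenic regulator (log2 fold change -0.97 ± 0.22, adjusted p = 0.00172). The ranges of the groups overlapped widely, with 13 and 14 of 14 Cort ATGLi livers below the Cort CON mean. The acetyl-CoA carboxylase genes Acaca (log2 fold change -0.87 ± 0.15, adjusted p = 3.36e-05) and Acacb (log2 fold change -0.65 ± 0.15, adjusted p = 0.00147), the elongase gene Elovl6 (log2 fold change -0.67 ± 0.16, adjusted p = 0.00259) and the citrate lyase gene Acly (log2 fold change -0.53 ± 0.15, adjusted p = 0.0118) fell, while the desaturase gene Fads1 (log2 fold change 0.57 ± 0.11, adjusted p = 0.000261) and the citrate carrier gene Slc25a1 (log2 fold change 0.33 ± 0.08, adjusted p = 0.00411) rose. Scd1 (log2 fold change -0.62, adjusted p = 0.0772) and Srebf1 (-0.30, 0.375) did not pass. Scd1 passed without Cort CON replicate 35 (adjusted p = 0.0387) or Cort ATGLi replicate 47 (0.0412).

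Of 12 measured genes of triglyceride synthesis, 3 fell and 0 rose: the final acyltransferase gene Dgat2 (log2 fold change -0.42 ± 0.07, adjusted p = 3.39e-05), Mogat1 (log2 fold change -1.42 ± 0.31, adjusted p = 0.00123) and Agpat2 (log2 fold change -0.35 ± 0.08, adjusted p = 0.00393). Of 17 genes of lipid droplets and lipolysis, 4 fell and 0 rose: the droplet coat genes Plin5 (log2 fold change -0.57 ± 0.13, adjusted p = 0.00173), Plin4 (log2 fold change -0.71 ± 0.21, adjusted p = 0.0163) and Plin3 (log2 fold change -0.55 ± 0.11, adjusted p = 0.000382) and the monoglyceride lipase gene Mgll (log2 fold change -0.32 ± 0.10, adjusted p = 0.0324). Plin2, the main droplet coat of hepatocytes (0.26, adjusted p = 0.146), Abhd5, the co-activator of ATGL (0.10, 0.564), and G0s2, its natural inhibitor (-0.51, 0.263), did not pass. The droplet gene Cidec reached 70.4 CPM in Cort ATGLi replicate 41 and at most 2.57 CPM in the other 13, so its log2 fold change of 0.91 (adjusted p = 0.352) became -1.59 (adjusted p = 0.00125) without that library. The fatty acid uptake gene Cd36, from a list in which 2 members rose and 3 fell, was among those that fell (log2 fold change -0.63 ± 0.20, adjusted p = 0.0325). Its call was lost without any of Cort ATGLi replicates 17, 18, 47 and 48 or Cort CON replicates 30, 35 and 45 (adjusted p up to 0.0771), and that of Mgll without Cort CON replicate 32 or 34 (up to 0.0607). The list of PPARα, the fatty acid receptor that drives oxidation genes, and its targets held 30 measured genes. Of these, 2 rose (against 5.19% of all genes), 1 (Vnn1) fell and 27 did not pass. Without the livers labelled diabetic 4 rose and 0 fell, and without Cort ATGLi replicate 41 2 rose and 3 fell. Those that rose were Ppara itself (log2 fold change 0.58 ± 0.12, adjusted p = 0.000794) and the carnitine transferase gene Cpt1a (log2 fold change 0.38 ± 0.11, adjusted p = 0.018).

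Some genes of glucose output and amino acid breakdown fell and none rose. Of 15 measured genes of gluconeogenesis and glucose output, 7 fell and 0 rose. G6pc lay between 78.6 and 483 CPM in Cort ATGLi livers, with a median of 342, and between 399.9 and 971 CPM in Cort CON livers, with a median of 601; the encoded phosphatase releases glucose from the hepatocyte (log2 fold change -1.05 ± 0.21, adjusted p = 0.000429). All 14 Cort ATGLi livers lay below the Cort CON mean, and the ranges overlapped. Slc37a4, its partner transporter (log2 fold change -0.49 ± 0.12, adjusted p = 0.00294), pyruvate carboxylase Pcx (log2 fold change -0.50 ± 0.10, adjusted p = 0.000586) and the transaminase gene Got1 (log2 fold change -0.85 ± 0.25, adjusted p = 0.0214) fell. The Got1 call rests on Cort CON replicate 45, without which its log2 fold change was -0.52 (adjusted p = 0.107), and without the livers labelled diabetic it was 0.085. Pck1, the carboxykinase gene of the same route, was not called (log2 fold change 0.24 ± 0.23, adjusted p = 0.583). Of 30 genes of amino acid catabolism, 10 fell and 0 rose. Oat had 41.7 CPM at the lowest, 119.7 at the median and 176 at the highest in Cort ATGLi livers, against 184, 227 and 401 CPM in Cort CON livers, and this ornithine aminotransferase gene had separate groups (log2 fold change -1.13 ± 0.14, adjusted p = 5.1e-08). The lysine catabolism gene Aass fell as well (log2 fold change -0.55 ± 0.10, adjusted p = 0.000184). Of 19 genes of glycolysis and fructose use, 5 fell and 0 rose. The insulin receptor substrate gene Irs2 fell (log2 fold change -0.86 ± 0.22, adjusted p = 0.00689).

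Falling members of these lipid, glucose and amino acid lists were fewer without the livers labelled diabetic, and so were falling genes over all. In that fit 289 of 13070 genes tested fell and 320 rose, against 821 and 658 of 12688 in the main fit. In the 13 Cort ATGLi and 5 Cort CON livers not labelled diabetic, 2 genes fell in lipogenesis, 1 in triglyceride synthesis, 1 in lipid droplets, 2 in gluconeogenesis, 2 in amino acid catabolism and 1 in glycolysis. Rising members there numbered 2 in lipogenesis and 1 each in triglyceride synthesis, lipid droplets and glycolysis. G6pc then had a log2 fold change of -0.66 (adjusted p = 0.226) and Fasn of -0.52 (adjusted p = 0.249), whereas Oat (-0.91, adjusted p = 0.00108), Acaca (-0.72, adjusted p = 0.00893) and Dgat2 (-0.32, adjusted p = 0.0366) still passed. Calls of Acacb, Elovl6, Acly, Mogat1, Agpat2, Plin5, Plin4, Mgll, Cd36, Slc37a4, Irs2 and Aass were lost as well, and so were those of Abcg8, Tiparp, Mt1, Mt2, Itih4, Cyp2e1, Wwox and Ighm outside these lists. The same 18 livers gave 11 higher p53 targets, 21 higher cholesterol genes, 13 higher NRF2 genes and 5 higher members of the aryl hydrocarbon receptor list. That fit has fewer libraries, so a lost call does not show a smaller effect, and the part of the diabetic state in these results was not tested. Under vehicle Acly (log2 fold change -0.76, adjusted p = 0.00671) and Agpat2 (-0.52, adjusted p = 0.000993) were also lower with atglistatin. Fasn (-0.23), Acaca (-0.0046), Mogat1 (-0.40), Plin5 (0.012), Plin4 (-0.26) and Cd36 (0.42) were not called there.

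Acute phase genes, which hepatocytes express during inflammation, included several of the most strongly decreased single genes. Of 25 measured, 12 fell, 0 rose and 13 did not pass, with a median log2 fold change of -0.33. Saa1 encodes serum amyloid A1, a classical marker of inflammation. Saa1 ranged from 2.59 to 81.2 CPM (median 5.88) in Cort ATGLi livers and from 7.39 to 766 CPM (median 45.4) in Cort CON livers (log2 fold change -3.87 ± 0.68, adjusted p = 5.43e-05). Orm3 encodes an orosomucoid. Orm3 lay between 1.65 and 8.69 CPM in Cort ATGLi livers, with a median of 4.87, and between 9.29 and 64.4 CPM in Cort CON livers, with a median of 23.5, and the groups were separate (log2 fold change -2.61 ± 0.29, adjusted p = 2.24e-09). Saa2 (log2 fold change -3.36 ± 0.67, adjusted p = 0.000372), Orm2 (log2 fold change -2.19 ± 0.34, adjusted p = 5.29e-06) and the inhibitor chain gene Itih4 (log2 fold change -0.38 ± 0.11, adjusted p = 0.0179) fell too. Saa1 and Saa2, and the Orm genes, are near-identical copies whose reads may be exchanged. Cort CON livers spread widely for Saa1, so some Cort ATGLi livers lay within their range. Without the livers labelled diabetic 8 members fell, with Saa1 at -4.25 (adjusted p = 0.000113) and Orm3 at -2.57 (adjusted p = 3.27e-06). Lcn2, the lipocalin 2 gene, did not pass (log2 fold change -1.33 ± 0.49, adjusted p = 0.0709) and reached 465 CPM in Cort ATGLi replicate 41, against at most 34.9 CPM in the other 13. Of the innate defence genes, Mbl2, mannose-binding lectin, rose and C9 of the membrane attack complex fell, each with separate groups. Mbl2 had 491 CPM at the lowest, 875 at the median and 1144 at the highest in Cort ATGLi livers, against 186, 339 and 464 CPM in Cort CON livers (log2 fold change 1.40 ± 0.12, adjusted p = 2.92e-13). C9 ranged from 279.8 to 589 CPM (median 442) in Cort ATGLi livers and from 591 to 1202 CPM (median 832) in Cort CON livers (log2 fold change -0.92 ± 0.11, adjusted p = 2.45e-08). Both were also called under vehicle, Mbl2 at 0.56 (adjusted p = 0.00987) and C9 at -0.97 (adjusted p = 6.7e-06). The interaction passed for Mbl2 (adjusted p = 0.00512) and not for C9 (adjusted p = 0.959).

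Of 24 measured genes of the glucocorticoid receptor and its targets, 4 fell in Cort ATGLi livers, 0 rose and 20 did not pass. Without Cort ATGLi replicate 41 the number that fell was 7. Fkbp5 lay between 110.5 and 326 CPM in Cort ATGLi livers, with a median of 183, and between 173 and 447 CPM in Cort CON livers, with a median of 308; this receptor co-chaperone gene is a standard reporter of glucocorticoid exposure (log2 fold change -0.69 ± 0.20, adjusted p = 0.0141). Its groups overlapped, with 13 of 14 Cort ATGLi livers below the Cort CON mean. Fam107a (log2 fold change -1.11 ± 0.30, adjusted p = 0.00842) and the metallothionein genes Mt1 (log2 fold change -1.24 ± 0.40, adjusted p = 0.0359) and Mt2 (log2 fold change -1.60 ± 0.44, adjusted p = 0.0111), which bind zinc and also count among the acute phase genes, were the others. The Mt1 call was lost without any of Cort ATGLi replicates 14, 17, 25, 26, 40, 47 and 48 or Cort CON replicates 32 and 45 (adjusted p up to 0.0567). Nr3c1, the receptor gene, did not pass (log2 fold change 0.08 ± 0.06, adjusted p = 0.457), nor did Sult1e1 (log2 fold change -1.02 ± 0.56, adjusted p = 0.259), Igfbp1 (log2 fold change -0.07 ± 0.48, adjusted p = 0.954), Fgf21 (log2 fold change -0.06 ± 0.41, adjusted p = 0.956) or Cyp7a1, the rate-limiting enzyme of bile acid synthesis (log2 fold change -0.10 ± 0.31, adjusted p = 0.898). Sult1e1 reached 518 CPM, Igfbp1 471 CPM and Fgf21 25.5 CPM in Cort ATGLi replicate 41. Without that library Sult1e1, Igfbp1, Fgf21 and Lcn2 passed, with log2 fold changes of -2.59, -1.21, -0.96 and -2.64 in that order. Without the livers labelled diabetic 1 receptor target fell, and Fkbp5 was at -0.62 (adjusted p = 0.224). Under vehicle Fkbp5 went the other way and was higher with atglistatin (log2 fold change 0.94 ± 0.25, adjusted p = 0.0207). Its means there were 18.2 CPM in EtOH ATGLi and 9.60 CPM in EtOH CON livers.

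The phosphate transporter gene Slc34a2 had the lowest log2 fold change outside the pancreatic genes among genes averaging at least 5 CPM. Slc34a2 had 0.0806 CPM at the lowest, 0.732 at the median and 3.08 at the highest in Cort ATGLi livers, against 1.98, 11.1 and 60.6 CPM in Cort CON livers (log2 fold change -4.15 ± 0.42, adjusted p = 1.66e-10). Its log2 fold change in Cort CON over EtOH CON livers, which shares the Cort CON libraries, was 4.45.

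Hepatocytes differ along the lobule, and those around the central vein express glutamine synthetase and take up ammonia and glutamate. Of 18 measured pericentral genes 5 fell, 3 rose and 10 did not pass. The 5 were Glul, glutamine synthetase (log2 fold change -0.9967 ± 0.15, adjusted p = 3.43e-06), the ammonia channel gene Rhbg (log2 fold change -1.62 ± 0.19, adjusted p = 1.46e-08, groups separate), the glutamate transporter gene Slc1a2 (log2 fold change -0.75 ± 0.16, adjusted p = 0.000934), Oat and the ethanol-oxidising Cyp2e1 (log2 fold change -0.61 ± 0.20, adjusted p = 0.0395). The Cyp2e1 call was lost without any of Cort ATGLi replicates 13, 17, 26 and 47 or Cort CON replicates 32, 33 and 34 (adjusted p up to 0.0761). Glul ranged from 139.6 to 848 CPM (median 668) in Cort ATGLi livers and from 817 to 1584 CPM (median 1292) in Cort CON livers. Every Cort ATGLi liver lay below the Cort CON mean. Those that rose were Cyp1a2, Gstm1 and Rnf43. Of 28 male-biased liver genes 7 fell (4 in limma voom) and 0 rose, and under vehicle 7 fell as well. Mup17 (log2 fold change -1.84 ± 0.48, adjusted p = 0.00671) and Cyp4a12b (log2 fold change -1.98 ± 0.32, adjusted p = 9.92e-06) belong to families of near-identical copies. Of 18 female-biased genes 0 passed in edgeR (6 at an unadjusted p below 0.05), 0 in DESeq2 and 2 in limma voom.

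The circadian clock is a loop of transcription factors whose genes peak at different times of day. Of 19 measured clock genes, 4 rose and 3 fell. Dbp encodes a clock output factor. Dbp lay between 2.98 and 26.7 CPM in Cort ATGLi livers, with a median of 12.5, and between 1.08 and 10.5 CPM in Cort CON livers, with a median of 2.64 (log2 fold change 1.89 ± 0.38, adjusted p = 0.000366). Nr1d2 (log2 fold change 0.84 ± 0.15, adjusted p = 4.12e-05), Tef (log2 fold change 0.62 ± 0.17, adjusted p = 0.0112) and Per3 (log2 fold change 1.04 ± 0.31, adjusted p = 0.0222) rose, and Npas2 fell (log2 fold change -1.81 ± 0.34, adjusted p = 0.000177). A clock index, computed as Dbp less Arntl on log2(CPM + 1), ran from -1.66 to 2.06 with a median of 0.70 in Cort ATGLi livers and from -2.67 to 0.72 with a median of -1.82 in Cort CON livers. The vehicle groups differed as well. The index ran from 0.25 to 6.31 (median 2.40) in EtOH ATGLi and from -2.65 to 1.71 (median -0.84) in EtOH CON livers. The labels give no time of collection, and the part of clock phase in the other differences was not tested. As a covariate the index was taken on edgeR's log2 CPM, and 793 of 12688 genes were called with it, 344 higher and 449 lower. Among them were 10 higher p53 targets, 20 higher cholesterol genes, 10 higher NRF2 genes, 8 lower acute phase genes and 3 lower lipogenic genes. Calls lost with the index included those of Dbp, Tef, Per3, Npas2, Bax, Fasn, Elovl6, Acly, Slc25a1, Mogat1, Agpat2, Plin4, Mgll, Cd36, Irs2, Cyp2e1, Abcg8, Itih4, Wwox, Fam107a and Ighm. Dbp is part of the index, so the loss of its call carries no information. The index itself differed between the diets, so a lost call does not show a smaller effect.

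Lists of cellular stress gave few or no calls. In edgeR 0 of 19 genes of endoplasmic reticulum stress passed (0 at an unadjusted p below 0.05, 0 in DESeq2 and 0 in limma voom). Of 16 genes of the integrated stress response 0 passed (3 unadjusted, 1 in DESeq2, 1 in limma voom), and of 14 heat shock genes 0 passed (2 unadjusted, 0 in DESeq2, 1 in limma voom). Of 28 genes of oxidative phosphorylation encoded in the nucleus 0 passed (1 unadjusted, 0 in DESeq2, 0 in limma voom). Of 8 measured protein genes of the mitochondrial genome, 4 fell, with a median log2 fold change of -0.42 over the 8. Of 6 ketogenic genes 0 passed (2 unadjusted, 1 in DESeq2, 2 in limma voom), and of 14 genes of bile acid synthesis 0 passed (1 unadjusted, 0 in DESeq2, 0 in limma voom).

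Whole liver holds several cell types, and in bulk samples fewer cells of a type and less RNA per cell cannot be told apart. Of 18 measured Kupffer cell and macrophage genes 0 passed in edgeR (4 unadjusted, 0 in DESeq2, 4 in limma voom), and 6 were lower without Cort ATGLi replicate 41. Their summed level had a median of 142 CPM in Cort ATGLi (range 99.2 to 545) and 175 CPM in Cort CON livers (range 121 to 271). Of 8 lymphocyte genes 2 fell, Cd4 (log2 fold change -1.64 ± 0.34, adjusted p = 0.000708) and the immunoglobulin gene Ighm (log2 fold change -1.04 ± 0.33, adjusted p = 0.0311), both below 3 CPM on average. The Ighm call was lost without any of Cort ATGLi replicates 14, 25 and 42 or Cort CON replicates 33 and 37 (adjusted p up to 0.122). Of 18 sinusoidal endothelial genes 1 fell, where 6.47% of all genes fell. Of 20 stellate cell and fibroblast genes 2 rose and 3 fell, and without Cort ATGLi replicate 41 2 rose and 5 fell. Of 14 hepatocyte markers 5 fell, and 1 fell without the livers labelled diabetic. Of 5 adipocyte genes 2 fell, with a summed median of 43.997 CPM in Cort ATGLi and 62.9 CPM in Cort CON livers. Of 12 pancreatic acinar genes 9 fell, and these calls rest on Cort CON replicate 30: Try5 was at 580 CPM there (log2 fold change -5.03, adjusted p = 0.017), and without the 6 libraries of the study with Cpa1 above 20 CPM 0 of the acinar genes fell and 2 rose. Cort ATGLi replicates 13, 23 and 47, which held some pancreatic RNA, stayed in that fit. DESeq2 called 8 of the 12 higher and 0 lower.

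Fewer genes were called without corticosterone, in smaller groups. In EtOH ATGLi over EtOH CON livers 397 genes were called (3.13%), 186 higher (1.47%) and 211 lower (1.66%). Called in both treatments were 172 genes, which is 11.6% of the 1479 and 43.3% of the 397, and 168 of the 172 had the same sign. Of all genes tested 61.8% had the same sign, and these comparisons share no library. The vehicle count was 15 with the clock index as a covariate, 207 without the 6 libraries with Cpa1 above 20 CPM and 899 in limma voom. The interaction passed for 181 genes (1.43%), with 89 higher and 92 lower (0.725%) under corticosterone. It passed for 76 without the livers labelled diabetic, 64 without the 6 libraries with high Cpa1 and 359 in limma voom. Of the 1479 genes called under corticosterone 130 had an interaction, of which 71 were higher and 59 lower in Cort ATGLi livers. In the list of p53 targets 10 members had an interaction and 3 rose under vehicle, against 1.43% and 1.47% of all genes. The smallest interaction p-values among called genes averaging at least 5 CPM were those of Ddit4l, the long non-coding transcript 9230114K14Rik, Fdft1, Mdm2, Lss, the exocyst gene Exoc4, Hmgcs1 and Tpbgl. For 9230114K14Rik the log2 fold change was 1.08 under corticosterone and 0.09 under vehicle (interaction adjusted p = 2.83e-06). For Exoc4 the values were 0.79 and -0.03 (interaction adjusted p = 4.18e-05), and for Tpbgl -1.12 and 0.18 (interaction adjusted p = 6.87e-05).

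**Figure D4:**
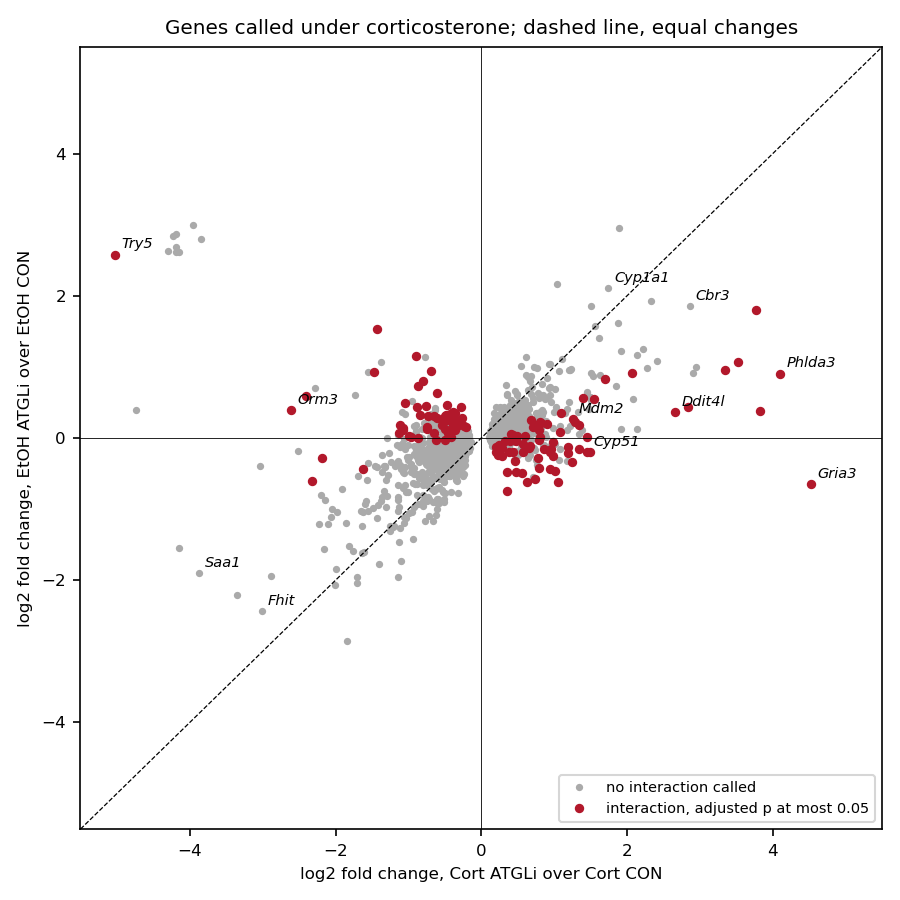
Log2 fold change of atglistatin under corticosterone (horizontal axis) and under vehicle (vertical axis) for the 1479 genes called under corticosterone, with the 130 genes that had an interaction in red and a dashed line where both changes are equal. Phlda3 (4.10 and 0.91) lies far below the line, Cyp1a1 (1.74 and 2.11) near it, and the cluster at the upper left holds pancreatic genes.

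The span of a gene on the genome, a grouping chosen after the data were seen, went with the direction of change. Of 268 tested genes spanning at least 300 kb, 66 fell (24.6%) and 6 rose (2.24%) in Cort ATGLi livers, against 6.09% and 5.25% of 12397 shorter genes. Between 100 and 300 kb 10.9% fell and 4.11% rose, and below 10 kb 5.49% fell and 4.90% rose. Under vehicle 22 of the 268 fell and 1 rose. Fhit (ENSMUSG00000060579, chromosome 14, 9550092 to 11162035, GRCm38), a gene of a common fragile site, had the lowest value. Fhit had 0 CPM at the lowest, 0.246 at the median and 0.49 at the highest in Cort ATGLi livers, against 0.7, 2.11 and 3.6 CPM in Cort CON livers; its groups were separate (log2 fold change -3.01 ± 0.28, adjusted p = 1.12e-11), and the log2 fold change under vehicle was -2.43. Its levels are near the lower end of detection. Dmd, dystrophin (log2 fold change -0.65 ± 0.11, adjusted p = 2.55e-05), and Wwox (log2 fold change -0.54 ± 0.12, adjusted p = 0.00171) were measured at higher levels and fell less, and Exoc4 rose (log2 fold change 0.79 ± 0.08, adjusted p = 1.56e-10).

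Per library, the median difference of these 268 genes from the Cort CON mean, on log2(CPM + 1), lay between -0.19 and -0.02 in Cort ATGLi livers (median -0.13) and between -0.11 and 0.07 in Cort CON livers (median 0.01). For genes under 10 kb the medians over libraries were -0.01 in Cort ATGLi and -0.02 in Cort CON livers. Without the livers labelled diabetic 26 of the long genes fell and 1 rose, and with the clock index 40 fell and 4 rose. Over all genes 289 fell and 320 rose without those livers, and 449 fell and 344 rose with the index.

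**Figure D5:**
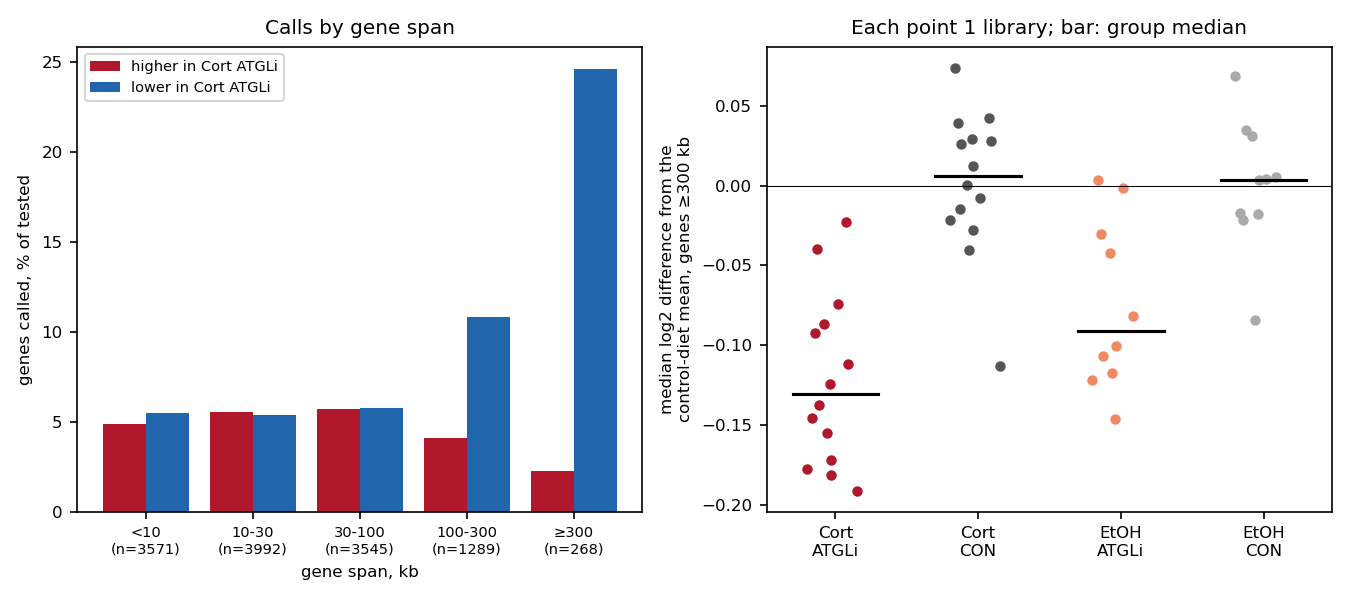
Left, the percentage of tested genes called higher or lower in Cort ATGLi livers, by gene span in kb (n, genes tested). Right, the median log2 difference of genes of at least 300 kb from the control-diet mean of the same treatment, 1 point per library with a bar at the group median. The lower calls reach 24.6% in the longest class, and the Cort ATGLi and EtOH ATGLi medians lie below those of their control-diet groups.

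Small nucleolar RNA genes, which guide the modification of ribosomal RNA, were also grouped after the data were seen. Of 29 tested, 16 rose and 0 fell, with a median log2 fold change of 0.99, and 1 rose under vehicle. Snord13 (log2 fold change 0.66 ± 0.18, adjusted p = 0.011) and Snora30 (log2 fold change 1.49 ± 0.32, adjusted p = 0.000955) are examples. Such RNAs lack poly(A) tails and many lie in introns of other genes, and the counting rule for shared reads is not given in the sources used here. Of the long non-coding genes among the 12 highest log2 fold changes, Snhg15, a host gene of a small nucleolar RNA, rose (log2 fold change 2.07 ± 0.20, adjusted p = 4.45e-11, groups separate), and Gm26917 rose (log2 fold change 1.70 ± 0.14, adjusted p = 5.48e-13, groups separate). Of 27 cytosolic ribosomal protein genes 8 rose, between 0.17 and 0.51 on the log2 scale, and 0 did so without the livers labelled diabetic.

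Among the other high fold changes, the sulfotransferase gene Sult2a7 rose (log2 fold change 2.22 ± 0.30, adjusted p = 2.86e-07), with near-identical copies in the genome. The cyclin gene Ccnd1 is listed there through 1 library: it had 350 CPM in Cort ATGLi replicate 41 and 5.22 to 9.77 CPM in the other 13, and its log2 fold change of 1.92 (adjusted p = 0.00583) became -0.18 (adjusted p = 0.442) without that library.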

How the data were processed

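Livers of 48 mice were profiled by QuantSeq, which reads the 3′ end of polyadenylated RNA, with 50-base forward reads per the labels' protocols. The authors deposited raw counts per gene, and the submitters' processing notes name GRCm38, R 3.6 and DESeq2 1.24.0. Not given in the sources used here were the aligner, the counting rule, the annotation and the strand setting. The authors also deposited a table of size-factor normalized signal, which equals the counts divided by median-of-ratios factors and was used in no test.

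Low genes were removed by filterByExpr at a minimum count of 10 and a total of 15. The rest were scaled by TMM and fitted over all 48 libraries and 4 groups with edgeR 4.0.16 quasi-likelihood in R 4.3.3. Benjamini-Hochberg adjustment ran over all 12688 genes, the standard error is the log2 fold change divided by the root of F, and an adjusted p of at most 0.05 was called. The script was tested on simulated data. Total counts per library, given with the results, limit the precision of low genes. Glucose and insulin were compared by permutation in SciPy 1.17.1 on Python 3.11.15. Gene spans came from GENCODE M21 and promoter windows from RefSeq GRCm38.p6.

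Alternatives were DESeq2 1.42.0, limma 3.58.1 voom, other scaling, no filter and the clock index as a covariate. Further fits were made without diabetic livers, without the 6 libraries with Cpa1 above 20 CPM, and without each of 28 libraries in turn. No 2 libraries of a group agreed within sampling noise. Named genes were the 12 highest and 12 lowest called log2 fold changes at a mean of at least 5 CPM, 8 interaction genes, up to 4 members of a list with the smallest p, and a preset set. All other named genes, further list members among them, were chosen after their values were seen. Results for a few genes are not reported here. Members and lists were chosen with earlier results of these data known.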

Additional observations from a re-analysis of the deposited data

Results flagged for a closer look

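For 44 of the genes named above the change with atglistatin differed between corticosterone and vehicle, by the interaction test of edgeR with adjustment over all genes. Each value here is the log2 fold change of Cort ATGLi over Cort CON minus that of EtOH ATGLi over EtOH CON. Among the p53 targets the differences were 3.20 for Phlda3, 3.44 for Tnfrsf10b, 2.29 for Ddit4l, 1.98 for Eda2r, 1.17 for Plk2, 1.11 for Trp53inp1, 1.06 for Aen, 1.01 for Ccng1 and 0.99 for Mdm2. Among the other genes with separate groups they were 5.17 for Gria3, 2.46 for Ddias, 2.40 for Mybl1, 2.39 for Atp8b5, 0.61 for Notch1 and 0.59 for Map3k20.

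In cholesterol synthesis and uptake the differences were 1.69 for Sqle, 1.68 for Hmgcs1, 1.64 for Cyp51, 1.57 for Msmo1, 1.48 for Fdft1, 1.47 for Lss, 1.44 for Idi1, 1.41 for Nsdhl, 1.24 for Mvk and 1.04 for Hsd17b7. Other genes with a more positive change under corticosterone were Snhg15 (1.15), 9230114K14Rik (0.99), Gm26917 (0.88), Mbl2 (0.83), Exoc4 (0.82), Fads1 (0.76) and Gclc (0.73).

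A more negative change under corticosterone was found for Orm3 (-3.01), Fkbp5 (-1.63), Tpbgl (-1.30), Oat (-1.20), Rhbg (-1.18), Glul (-1.03), Slc1a2 (-0.90), Tiparp (-0.87), Acaca (-0.87), Slc37a4 (-0.80) and Dmd (-0.71). Fkbp5 was called in both treatments, higher with atglistatin under vehicle and lower under corticosterone. The difference of -7.61 for Try5 rests on libraries with pancreatic RNA, Cort CON replicate 30 among them.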

How the results depend on the processing

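The main fit called 1479 genes under corticosterone, 397 under vehicle and 181 for the interaction. Without the livers labelled diabetic the corticosterone count was 609 (320 higher, 289 lower), 533 of them among the 1479, so that 52.5% of calls were higher against 44.5%, and the interaction count was 76 (56 higher, 20 lower). With the clock index as a covariate the counts were 793 (344 higher, 449 lower) under corticosterone, 646 of them among the 1479, and 15 (7 higher, 8 lower) under vehicle, with 56 lower for the interaction. With limma voom and sample weights the vehicle count was 899 (397 higher, 502 lower) and the interaction count 359 (183 higher, 176 lower), and DESeq2 called 322 lower genes under vehicle. Without the 6 libraries with Cpa1 above 20 CPM the vehicle count was 207 (88 higher, 119 lower) and the interaction count 64 (44 higher, 20 lower). Leaving out 1 library at a time gave 1253 to 1719 calls under corticosterone, with 492 to 795 higher and 698 to 954 lower. The insulin difference without diabetic mice was -9.35 and no longer passed. No paired analysis was possible because the corticosterone groups share no replicate number. For the vehicle groups, which share numbers 09 to 12, the planned fit of the vehicle libraries alone with the replicate block called 6 genes (5 higher, 1 lower). In that fit only the libraries with shared numbers inform the diet difference. Its count therefore does not show a smaller effect than the 397 of the main fit. Some named genes turned sign. Cidec was at -1.56 in DESeq2, -1.38 in limma voom and -1.59 without Cort ATGLi replicate 41. Ccnd1 was at -0.048, -0.0047 and -0.18 in the same order. Leaving out each of the other libraries in turn gave at most 1.05 for Cidec and 2.0037 for Ccnd1. Try5 was at 2.80 in DESeq2 and 4.45 without the livers labelled diabetic. Tef was at -0.0040 with the clock index, and without the livers labelled diabetic Cyp7a1 was at 1.17 and Got1 at 0.085. The causes were not tested. Genes with fewer than about 1 CPM rest on few counts, which limits their fold changes.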

Other observations

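Calls in lists not described above are given for Cort ATGLi over Cort CON livers, where 5.19% of all genes rose and 6.47% fell. Without the livers labelled diabetic, 320 of 13070 genes rose and 289 fell. The list of CAR and PXR, the receptors that induce drug metabolism, and their targets held 28 measured genes. Of these, 7 rose and 3 fell, and 0 fell without the livers labelled diabetic. Under vehicle 7 rose and 0 fell. Of 27 interferon-induced genes 2 rose (Oasl2 and Ifi44) and 0 fell, and 0 rose without the livers labelled diabetic and 1 without Cort ATGLi replicate 41. Of 19 genes of iron and metal handling 6 fell, Mt1, Mt2 and the hepcidin gene Hamp2 among them, and 1 rose, the iron exporter gene Slc40a1. In this list 1 fell without the livers labelled diabetic. Of 24 complement and coagulation genes 3 fell and 1 rose. Of 17 periportal genes 4 fell and 1 rose, and of 8 urea cycle genes 1 fell and 0 rose, and without the livers labelled diabetic 0 of either list fell. Of 20 cell cycle genes 2 rose and 1 fell, and 0 rose and 7 fell without Cort ATGLi replicate 41. Calls higher and lower numbered 3 and 2 for apolipoproteins, 1 and 3 for hepatokines and 2 and 1 for bile acid transporters. They numbered 0 and 2 for insulin signalling and 1 and 0 for glycogen. Without the livers labelled diabetic 0 hepatokine and 0 insulin signalling genes were called. Of 9 cholangiocyte and 5 erythroid genes 1 each fell and 0 rose. Antigen presentation, immediate early, neutrophil and mesothelial lists gave 0 calls in the main fit. In the immediate early list 1 fell in DESeq2, 1 without the livers labelled diabetic and 2 without Cort ATGLi replicate 41. In the mesothelial list 1 fell in DESeq2.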
